A study of Homo sapiens with 8 samples.

Results

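The guanylate-binding protein (GBP) gene cluster on chromosome 1 holds the 7 genes GBP1, GBP2, GBP3, GBP4, GBP5, GBP6 and GBP7. Open chromatin was examined from 20 kb before the first to 20 kb after the last of these genes in the GENCODE 44 annotation, which is chr1:88986679-89408160 of GRCh38, or 421482 bp. Every listed peak in this stretch was taken, and a region was formed wherever peaks of separate libraries shared 1 bp or more. This gave 25 of the 195897 peaks in all lists and 7 of 52105 regions. A region at the shared start of the neighbouring genes KYAT3 and RBMXL1, in the flank before the first GBP gene, held 10 of the peaks. The other 6 regions, at or between the GBP genes, held 15 peaks.

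The assay was FAIRE-seq, in which crosslinked chromatin is sheared and extracted with phenol so that DNA free of nucleosomes stays in solution and is sequenced. The cells were U2OS, a human osteosarcoma cell line. The 8 libraries came from the wild-type (WT) clones WT_4 and WT_5 and from the clones KO_C5 and KO_D2, in which ZBTB48, a zinc finger protein that binds telomeric repeats and some promoters, was knocked out. Each clone gave an untreated library and a library from cells given 250 U/ml interferon gamma (IFNγ), so that each of the 4 groups held 2 libraries. The labels give 24 h of treatment, whereas a longer treatment is described in the study's text, and the duration is thus uncertain. Each genotype rests on 2 clonal lines, with 1 library per clone and treatment. The p-values below for treatment measure the spread between libraries and leave out their pairing by clone, except where the clone is named as a block. Those for genotype measure the spread between clones.

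GBPs are large GTPases of innate immunity. Interferon gamma acts through its receptor and the kinases JAK1 and JAK2, and the genes that respond carry gamma-activated sites or interferon-stimulated response elements, the latter bound by interferon regulatory factors. GBPs made after this signal assemble on intracellular bacteria and parasite vacuoles, and several, GBP1, GBP2 and GBP5 among them, are anchored to membranes by a lipid that prenylation enzymes attach. GBP genes are textbook targets of IFNγ in many cell types.

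Sequences under the peaks are shown first, because their base composition and motifs differed between the sites. In each, capitals mark every match to TTCNNNGAA (the gamma-activated site), to GAAA, any 2 bases and GAAA (the core of the interferon-stimulated response element, ISRE) and to TGANTCA (the AP-1 site), on either strand. The hexamer TTAGGG, which ZBTB48 binds, was searched as well and had no match in any of them. The first 2 are 300 bases of the plus strand of GRCh38 around summits in the regions that had a peak in all 4 IFNγ libraries. They are the part of the GBP5 upstream region far from the gene (chr1:89274377-89274676) and the site between GBP5 and GBP6 (chr1:89311777-89312076). After IFNγ the far part itself had peaks in WT_5, KO_C5 and KO_D2 and none in WT_4.
GBP5 upstream region, far part: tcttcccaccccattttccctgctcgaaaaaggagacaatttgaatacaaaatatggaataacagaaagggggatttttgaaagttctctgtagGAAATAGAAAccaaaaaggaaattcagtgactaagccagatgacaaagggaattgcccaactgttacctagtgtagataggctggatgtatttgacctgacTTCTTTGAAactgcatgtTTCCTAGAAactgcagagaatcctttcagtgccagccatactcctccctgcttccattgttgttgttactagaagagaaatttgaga
GBP5-GBP6 intergenic site: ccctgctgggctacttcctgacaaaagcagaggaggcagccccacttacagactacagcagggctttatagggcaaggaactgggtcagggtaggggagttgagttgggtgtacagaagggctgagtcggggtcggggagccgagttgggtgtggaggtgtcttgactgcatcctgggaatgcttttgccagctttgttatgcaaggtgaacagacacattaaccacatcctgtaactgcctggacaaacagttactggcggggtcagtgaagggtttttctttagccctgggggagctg

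The far part of the GBP5 upstream region held 2 gamma-activated sites and 1 ISRE core at 40% G and C. The intergenic site, at 54.7% G and C, held none of the motifs searched. In the intergenic site 35 of the 271 words of 30 bases occurred elsewhere in the genome, with up to 5 copies in all, and in the far part 2 words did.

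Promoter sequences of RefSeq (GRCh38.p14, from 250 bases before to 50 bases after a gene start) matched 5 of the 7 members, namely GBP1, GBP3, GBP4, GBP6 and GBP7. GBP2 and GBP5 had none. The ISRE core occurred in the promoters of GBP1, GBP3 and GBP4, and the 30 bases around it are printed on the minus strand, from which these genes are read. They lie at chr1:89065323-89065352 (GBP1), chr1:89022852-89022881 (GBP3) and chr1:89198934-89198963 (GBP4).
GBP1 element: tgatttgaacgaagtacTTTCAGTTTCata
GBP3 element: TTCCTTGAAagaagtacTTTCAGTTTCatt
GBP4 element: ccacaaagtgcatgtccTTTCAATTTCggt

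The elements of GBP1 and GBP3 carried the same 10 letters, TTTCAGTTTC, and in GBP3 a gamma-activated site, TTCCTTGAA, stood just before it. The GBP3 promoter also held the AP-1 letters TGAGTCA, and that of GBP6 held TGATTCA. The GBP7 promoter held no match. The promoters of GBP1 and GBP3 aligned over 152 bases, of which 131 were identical (86.2%). Values at such related genes are uncertain where reads fit both, since the study's methods dropped reads with a mapping quality under 30. In the GBP1 promoter 19 of 271 words of 30 bases occurred 2 times in the genome, and in the GBP3 promoter every word was unique. These motifs also occurred at other sites. TTCNNNGAA occurred in 7.66% of all 34961 RefSeq promoters and 6.88% of 52105 regions (300 bases around the summit), the ISRE core in 3.58% and 4.1%, TGANTCA in 7.68% and 19.7%, and TTAGGG in 9.05% and 6.8%. A match describes letters and does not show that a factor was bound.

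The lists held between 16730 (KO_D2, untreated) and 37533 (WT_5, IFNγ) peaks on chromosomes 1 to 22 and X. Peak lists hold no read counts, but the fragments piled up at each summit could be solved from the listed fold enrichment and −log10 p. The lowest local background of a list lay between 0.621 and 1.08 fragments per position, and the weakest pileup in a list was 5 or 6 fragments. A site with a higher local background needs a higher pileup to be listed. Among osteoblast lineage markers 5 of 6 genes had a promoter peak in some library (RUNX2 in all 8, COL1A2 in none), among blood markers 1 of 4 (SPI1, in 1 IFNγ library), among epithelial markers 2 of 3 in all 8 (EPCAM and KRT8, with CDH1 in none) and among endothelial markers 0 of 2. COL1A1 had the peak in 4 IFNγ and 3 untreated libraries, SPARC in 3 and 2, and ALPL in 3 and 1. TWIST1 had it in 1 untreated library alone. No share over all coding genes was set beside these marker counts. ZBTB48 itself had a promoter peak in all 8 libraries, which checks nothing about the knockout.

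Outside the KYAT3/RBMXL1 promoter, the GBP cluster had no listed peak in any untreated library and 2 to 5 peaks in every IFNγ library. The untreated libraries of WT_4, WT_5, KO_C5 and KO_D2 had 0 peaks each. After IFNγ the same clones had 3, 5, 2 and 5 peaks, which covered 1307, 1693, 525 and 1551 bp. The groups did not overlap. IFNγ libraries had 3.75 ± 1.5 of these peaks (SD, n = 4) and untreated libraries 0, a difference of 3.75 (two-sided exact permutation p = 0.0286, the smallest of 70 assignments). With the KYAT3/RBMXL1 promoter counted, the numbers were 5.25 ± 1.5 and 1.0 ± 0 (SD, n = 4 each), a difference of 4.25 (exact permutation p = 0.0286). With the clone as a block, which pairs the libraries as the labels do, both differences had an exact permutation p of 0.125, the smallest that 4 pairs allow.

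List length moved with the treatment in 3 of the 4 clones and so was set beside these counts. After IFNγ the lists of WT_5, KO_C5 and KO_D2 were longer than in the untreated state, at 37533, 27457 and 24727 against 29567, 19255 and 16730 peaks. The list of WT_4 was shorter after IFNγ, at 18913 against 21715 peaks, with 3 against 0 peaks in the cluster. In the mean, IFNγ lists held 5341 more peaks, which did not exceed the spread (exact permutation p = 0.314). When every list was reduced to its 16730 strongest peaks, 1 gained peak remained in WT_4 (upstream of GBP5) and 1 in KO_D2 (GBP5 promoter), and the difference over the whole stretch fell to 0.5 peaks (exact permutation p = 0.429). The cluster peaks thus lay mostly in the weaker part of the lists, and the part of list length in the result was not tested.

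**Figure D1:**
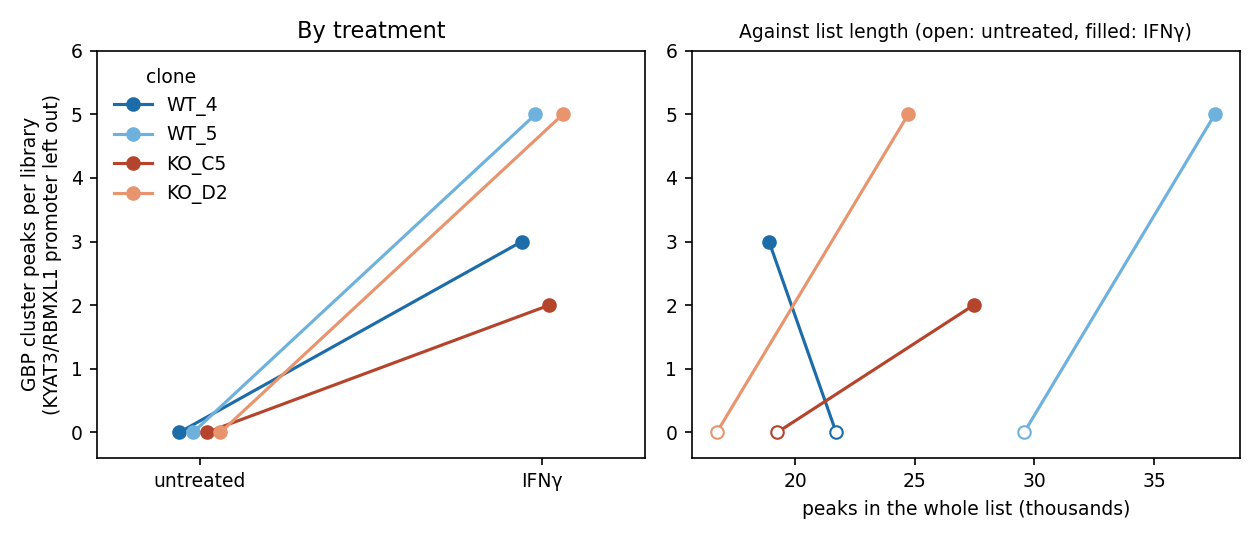
Number of listed FAIRE-seq peaks per library in the GBP cluster, with the KYAT3/RBMXL1 promoter left out, by treatment (left) and against the number of peaks in the whole list, in units of 1000 (right). Each point is 1 library and each line joins both libraries of a clone: all 4 untreated libraries sit at 0 and the IFNγ libraries at 2 to 5, while the line of WT_4 runs to a shorter list.

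Of the 7 regions, 6 had peaks in IFNγ libraries alone, and 28.7% of all 52105 regions did. In 2 of them, the GBP5 upstream region and the site between GBP5 and GBP6, all 4 IFNγ libraries and no untreated library had a peak, a pattern that 0.127% (66) of all regions showed. Strength was compared by the percentile of a peak's −log10 p within its own list, where 100 is the strongest peak and 0 stands for no peak. Among the 5 cluster regions found in 2 or more libraries, these 2 had every IFNγ percentile above every untreated one, against a background of 0.873% of 31829 regions. This restates the pattern of peaks, since with no untreated peak it holds, at the smallest p, for IFNγ peaks of any strength. The reverse was seen in 0 of 5, with a background of 0.0377%, but it could not arise in regions without an untreated peak. After Benjamini-Hochberg adjustment over all 31829 regions, neither passed (adjusted exact permutation p = 0.983 for both, which was the lowest adjusted value of any region). The smallest exact permutation p, 0.0286, was reached by 290 regions, too few for any region to pass.

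GBP5 had the most peaks of the members. GBP5 restricts the processing of viral envelope proteins and takes part in inflammasome signalling. The gene lies on the minus strand at chr1:89256189-89272860. Its promoter region, chr1:89272739-89273071, overlaps the first exon and untranslated region of GBP5 and was listed in 2 IFNγ libraries. Fold enrichment, which the listed values give as the pileup plus 1 over the local background plus 1, was 4.55 in WT_4 (percentile 5.44) and 8.37 in KO_D2 (percentile 37.5), with pileups of 7 and 23 fragments. WT_5 and KO_C5 had no peak there after IFNγ, and no untreated library had one. KO_D2 held the strongest of the 15 cluster peaks by percentile here. The mean difference of 10.7 percentile points did not exceed the spread (exact permutation p = 0.429). By the rule for gene counts, 500 bp either side of a start, the WT_4 peak that begins 448 bp upstream is also a promoter peak. With it, WT_4 had a percentile of 21.8 and a fold enrichment of 6.83, and the difference was 14.8 (exact permutation p = 0.429).

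The GBP5 upstream region is 1513 bp long, lies 448 bp before the GBP5 start and is intergenic. After IFNγ its fold enrichment was 6.83 in WT_4, 5.21 in WT_5 and 4.72 in KO_C5. KO_D2 had 2 peaks in it, with fold enrichments of 5.11 and 4.62. The percentile of the stronger peak was 21.8, 20.7, 4.28 and 12.04 in WT_4, WT_5, KO_C5 and KO_D2. All 4 IFNγ libraries were thus above the untreated ones, which had no peak, by a mean of 14.7 ± 8.20 percentile points (SD, n = 4, exact permutation p = 0.0286). In lists of equal length the difference was 2.89 (exact permutation p = 1), and with the clone block p was 0.125 by exact permutation. The region spans sites that no library joined into 1 peak. The summit lay 607 bp before the GBP5 start in WT_4, in the near part, and 1774 and 1707 bp before it in WT_5 and KO_C5, in the far part. KO_D2 had summits in both, at 711 and 1558 bp. WT_4 and WT_5 overlapped by their edges. Without the IFNγ library of WT_5, or when peaks were joined only where they shared 0.5 or more of the shorter peak, the near and far parts were separate regions. In the latter case the far part, listed in WT_5, KO_C5 and KO_D2, differed by 7.75 percentile points (exact permutation p = 0.143).

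**Figure D2:**
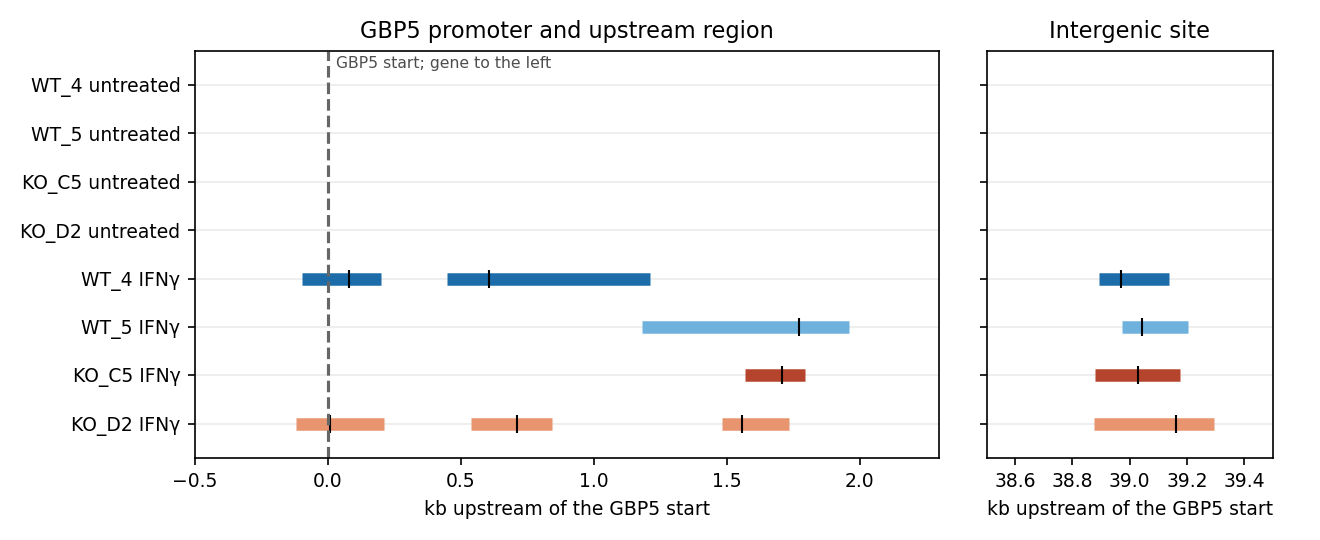
Listed peaks (bars) with their summits (black ticks) in each of the 8 libraries, plotted as the distance in kb upstream of the GBP5 start, which is the dashed line (left panel: promoter and upstream region, right panel: intergenic site). No untreated library has a bar, the upstream peaks fall into a near part with summits at 607 and 711 bp and a far part at 1558 to 1774 bp, and all 4 IFNγ libraries share the intergenic site.

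The site between GBP5 and GBP6, chr1:89311736-89312156, lies 38876 bp before the GBP5 start and overlaps no annotated gene. The nearest gene start, 12366 bp away, is that of ENSG00000233235. Fold enrichment after IFNγ was 3.48 in WT_4, 6.47 in WT_5, 7.85 in KO_C5 and 8.66 in KO_D2. The percentiles were 0.394, 29.3, 22.7 and 31.9, so that the peak of WT_4, with a pileup of 6 fragments, was among the weakest of its list. The mean difference from the untreated libraries, which had no peak, was 21.1 ± 14.3 points (SD, n = 4, exact permutation p = 0.0286). The call rests on the weak WT_4 peak. Without peaks of fold enrichment below 4 the difference was 18.0 (exact permutation p = 0.143), and with a −log10 q of at least 3 it was 18.8 (exact permutation p = 0.143). In lists of equal length no library had the peak, which left a difference of 0, and with the clone block the exact permutation p was 0.125.

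Neither region was strong among those gained in all 4 IFNγ libraries. Ordered by mean IFNγ percentile, the intergenic site was at place 52 and the GBP5 upstream region at place 59 of the 66 regions with this pattern, whose median was 29.2 (range 5.67 to 61.5).

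**Figure D3:**
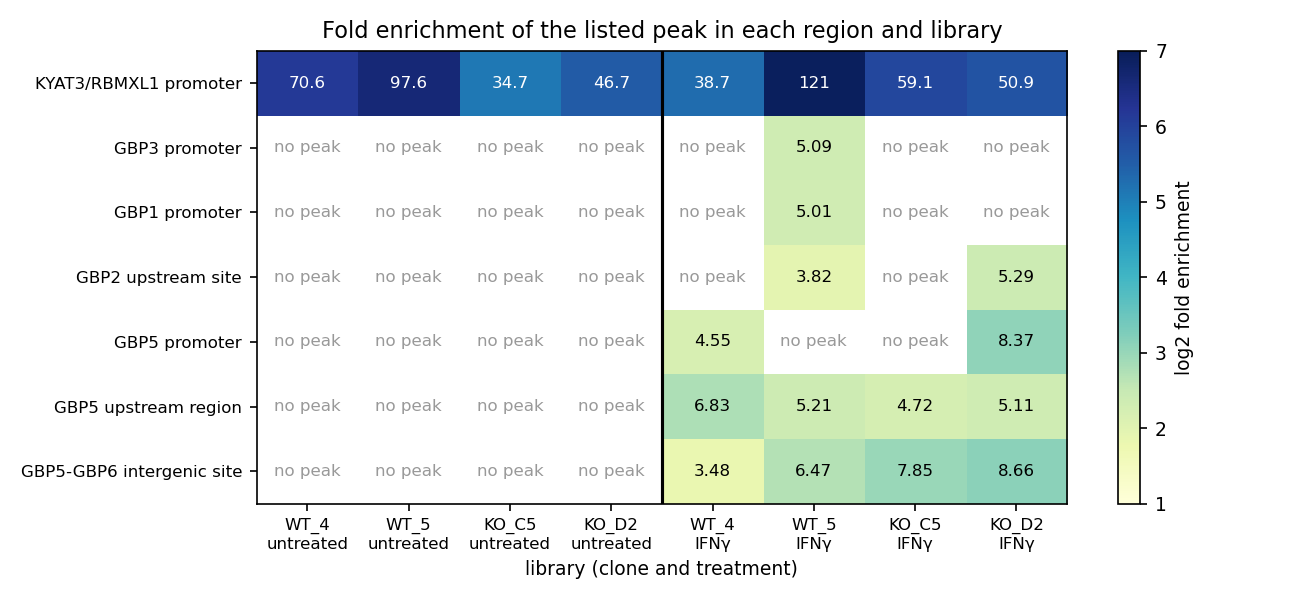
Fold enrichment of the strongest listed peak in each of the 7 regions (rows) and 8 libraries (columns, untreated on the left and IFNγ on the right of the black line), printed in each cell and coloured by its log2. The KYAT3/RBMXL1 promoter has values from 34.7 to 121 in all libraries, whereas the 6 other regions have no untreated peak and values from 3.48 to 8.66 after IFNγ.

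The GBP2 upstream site lies 2740 bp before the nearest start of GBP2, within an intron of its longest transcript and of the long non-coding RNA gene ENSG00000286802, whose start is 422 bp away. GBP2, one of the prenylated members, spans chr1:89106132-89150456 on the minus strand. The site was listed in WT_5 after IFNγ with a fold enrichment of 3.82 (percentile 3.17, pileup 6) and in KO_D2 after IFNγ with 5.29 (percentile 8.01, pileup 10). The other 6 libraries had no peak there. The mean difference was 2.80 percentile points (exact permutation p = 0.429).

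In the far part of the GBP5 upstream region, the letters TTCTTTGAA were inside the peaks of WT_5, KO_C5 and KO_D2, at 54, 5 and 154 bp from their summits. TTCCTAGAA was inside the peaks of WT_5 and KO_C5, at 36 and 23 bp. The ISRE letters GAAATAGAAA were inside all 3, at 154, 87 and 53 bp. The peak of WT_4 was in the near part and held none of these matches.

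GBP1 and GBP3, neighbours in the cluster, had a promoter peak in a single library, WT_5 after IFNγ, which also had the longest list. GBP1 encodes the member that coats cytosolic Gram-negative bacteria and binds lipopolysaccharide. The GBP1 peak, chr1:89065238-89065451, had a fold enrichment of 5.01, a percentile of 15.7 and a pileup of 9 fragments. The GBP3 peak, chr1:89022779-89023007, had a fold enrichment of 5.09, a percentile of 14.9 and a pileup of 8. Both overlap the first exon and untranslated region of their gene, and 0 of the other 7 libraries had either. The ISRE letters of each element lay inside the peak, 38 bp from the GBP1 summit and 41 bp from the GBP3 summit. The gamma-activated site of GBP3 was 24 bp and its AP-1 match 16 bp from the summit.

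GBP2, GBP4, GBP6 and GBP7 had no promoter peak in any library, within 500 bp or within 1 kb of an annotated start. The nearest peak of any library was 2740 bp from a start of GBP2. For GBP7 (chr1:89131742-89176009) it was 46885 bp away, for GBP4 (chr1:89181144-89198942) 56280 bp and for GBP6 (chr1:89364059-89388160), the sole member on the plus strand, 51903 bp. GBP4 thus had an ISRE core in its promoter and no peak near it. Since the weakest pileup in any list was 5 or 6 fragments, and more is needed at a higher local background, a weaker opening was not detectable.

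Over the members, 0 promoters had a peak in each untreated library, and 1 (WT_4), 2 (WT_5), 0 (KO_C5) and 1 (KO_D2) had one after IFNγ. The groups overlapped at 0. The means were 1.0 ± 0.816 and 0 (SD, n = 4 each, exact permutation p = 0.143). The 3 members with a promoter peak had it in IFNγ libraries alone, through which they were counted, and this is a description. Of the 14428 coding genes with a promoter peak in any library, 16.3% had it in more IFNγ than untreated libraries and 7.04% in fewer. No member had every IFNγ percentile above every untreated one, a pattern of 0.797% of these genes, and none the reverse, a pattern of 0.0485%. The reverse could not arise in members without an untreated peak.

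The pileups gave the depth behind these peaks. They ranged from 6 fragments, for WT_4 at the intergenic site and WT_5 at the GBP2 site, to 23, for KO_D2 at the GBP5 promoter. The 15 peaks had a median fold enrichment of 5.11 and a median percentile of 14.9. The local background under these peaks reached 2.13 fragments, in KO_D2 upstream of GBP5. The lowest background of a list was lower after IFNγ than before in both WT clones (0.621 against 0.656 fragments in WT_4, 0.770 against 1.02 in WT_5). It was higher in both KO clones (0.906 against 0.719 in KO_C5, 1.08 against 0.626 in KO_D2). Thus the WT clones gained peaks at a lower floor of background, and in the KO clones a higher floor moved with the gain. Its part in the result was not tested.

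**Figure D4:**
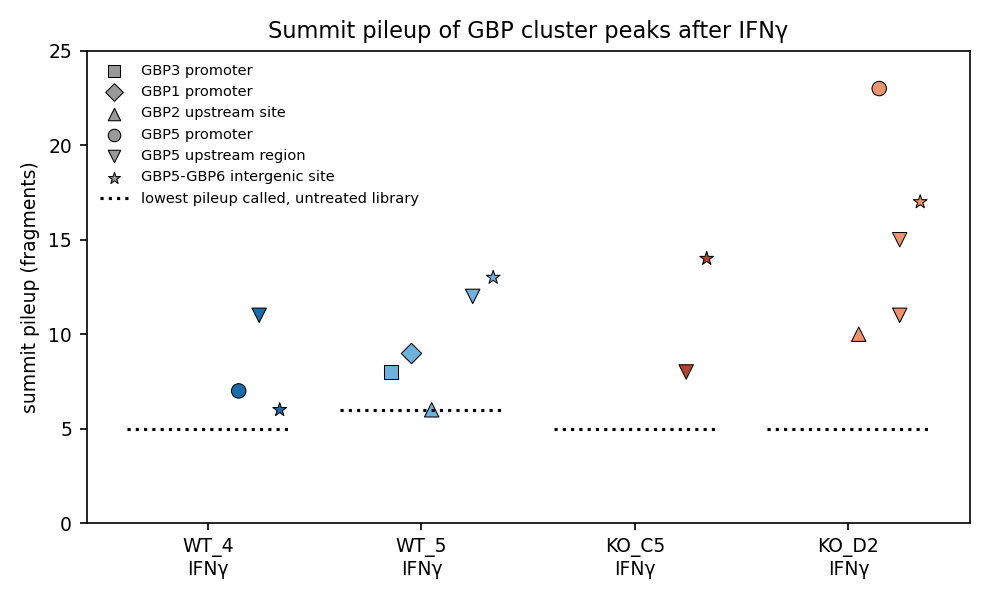
Fragments at the summit of each of the 15 cluster peaks outside the KYAT3/RBMXL1 promoter, all of which are in IFNγ libraries, by clone, with a symbol per region. The dotted line is the weakest pileup anywhere in the untreated list of the same clone (5 or 6 fragments), which is not a limit set at these sites. The peaks run from 6 fragments to the GBP5 promoter of KO_D2 at 23.

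The second comparison was between genotypes. After IFNγ WT clones had 3 and 5 cluster peaks and KO clones 2 and 5, so that the genotypes overlapped. Over the whole stretch the mean of a clone's libraries was 3.0 ± 0.707 peaks for WT and 3.25 ± 1.06 for KO (SD, 2 clones per genotype), a difference of −0.25 (exact permutation p = 1, with 0.333 the smallest possible). The change with IFNγ was 4.0 ± 1.41 peaks in WT and 4.5 ± 2.12 in KO, a difference of −0.5 (exact permutation p = 1). The sign of both differences came from the KYAT3/RBMXL1 promoter, which had a second listed peak in both KO clones after IFNγ. Outside it they were 0.25 and 0.5. Member promoters with a peak numbered 0.75 ± 0.354 in WT and 0.25 ± 0.354 in KO (exact permutation p = 0.667). With 2 clones per genotype, these tests cannot show a difference at the 0.05 level. By region, 0 of the 5 regions in 2 or more libraries had all WT percentiles above all KO ones (background 3.88%) and 0 had the reverse (0.135%). In all of these but the KYAT3/RBMXL1 promoter, the untreated libraries of both genotypes had no peak, so neither pattern could arise.

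The KYAT3/RBMXL1 promoter, chr1:88991786-88993253, served as the strong peak of the stretch against which the others could be read. KYAT3 encodes a kynurenine aminotransferase. Untreated, its fold enrichment was 70.6 in WT_4, 97.6 in WT_5, 34.7 in KO_C5 and 46.7 in KO_D2. After IFNγ it was 38.7, 121, 59.1 and 50.9 in the same order. The values were higher after IFNγ in 3 clones and lower in WT_4, and the groups, at 67.4 ± 36.6 after IFNγ and 62.4 ± 27.8 untreated (SD, n = 4 each), overlapped (exact permutation p = 0.8). Its percentile lay between 84.2 and 99.5. The mean fold enrichment of the WT clones, 82.0 ± 38.6, was above that of the KO clones, 47.9 ± 1.35 (SD, n = 2 clones each), but the local background was lower there in WT, at 1.08 ± 0.203 against 2.37 ± 0.114 fragments (exact permutation p = 0.333 for each, the smallest possible). The mean percentile was 93.5 in both genotypes.

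At the edges of the stretch, the member just inside was this promoter, and the nearest peaks just outside were a peak 1291 bp before the stretch, in untreated KO_C5 (fold enrichment 4.75, percentile 8.47), and a peak at the pseudogene GBP1P1, 10.3 kb past its end. The latter was listed in WT_5 both untreated (fold enrichment 3.87, percentile 3.39) and after IFNγ (4.91, percentile 13.0).

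Genes that act with the GBPs were then examined at their promoters. All 10 genes of IFNγ signalling (IFNGR1, IFNGR2, JAK1, JAK2, STAT2, IRF1, IRF2, IRF8, IRF9 and SOCS1) had a promoter peak, 9 of them in all 8 libraries. IRF9, an interferon regulatory factor that partners with STAT2, was the exception, with a peak in 3 IFNγ and 2 untreated libraries.

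Of 8 genes whose products act with GBPs in inflammasome or effector pathways (CASP1, CASP4, GSDMD, AIM2, NLRP3, APOL3, PIM1 and FURIN), 6 had a promoter peak in some library and 2 had one in more IFNγ than untreated libraries. APOL3, an interferon-induced apolipoprotein L that lyses cytosolic bacteria, had no untreated peak and had one after IFNγ in WT_5 (percentile 50.1), KO_C5 (45.3) and KO_D2 (33.5). The groups overlapped, since WT_4 had none (exact permutation p = 0.143). NLRP3 had a peak in KO_D2 after IFNγ alone (percentile 12.3). GSDMD, the pore-forming protein cleaved downstream of inflammasomes, had percentiles of 72.0, 71.0, 84.5 and 55.5 untreated and 93.8, 95.4, 94.5 and 91.5 after IFNγ, in the order WT_4, WT_5, KO_C5 and KO_D2. Every IFNγ library was above every untreated one, at 93.8 ± 1.65 against 70.7 ± 11.9 (SD, n = 4 each), by 23.04 points (exact permutation p = 0.0286, adjusted p = 1 over the 14428 coding genes). No gene could pass that adjustment, since 0.0286 is the smallest p of this exact permutation test. In lists of equal length the difference was 27.7 (exact permutation p = 0.0286). CASP1 and CASP4 had no peak in any library.

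Of 6 enzymes of prenylation or later processing (FNTA, FNTB, PGGT1B, RCE1, ICMT and ZMPSTE24), 5 had a promoter peak in all 8 libraries. PGGT1B, a prenyltransferase subunit, had it in 4 IFNγ and 3 untreated libraries. The 6 neighbours of the cluster (PKN2, GTF2B, KYAT3, RBMXL1, LRRC8B and LRRC8C) had it in all 8. Of the 30 genes of these lists, 28 had a promoter peak in some library, 4 of them in more IFNγ than untreated libraries and 0 in fewer, beside 16.3% and 7.04% of the coding genes with a promoter peak in any library, and GSDMD was the 1 gene with every IFNγ percentile above every untreated one, beside 0.797%.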

How the data were processed

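FAIRE-seq libraries of 4 U2OS clones, untreated and IFNγ-treated, were trimmed with Trimmomatic, aligned to GRCh38 with Bowtie2 2.2.5, filtered with SAMtools 1.14 and submitted to MACS2 2.2.7.1 by the authors, per the labels and the study's methods. 1 peak list per library was deposited. The control used in peak calling and the handling of duplicate reads are not given in the sources used here. The deposited fold enrichment is a ratio of summit pileup to local background, each with 1 added. The deposited −log10 p, −log10 q and score came from the same caller, and the score was not used here. Lists hold no read counts, so fold enrichment and rank carry the depth of each library with them.

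Chromosomes 1 to 22 and X were used. Percentiles were ranks of −log10 p within a list. A promoter was 500 bp either side of any GENCODE 44 start. Summit pileups were sought as whole numbers with the caller's Poisson formula, for peaks with −log10 p below 12 and all cluster peaks. For the former, 100% in every library gave back the listed −log10 p within 0.001. Treatment was tested by a two-sided exact permutation test over the 70 assignments of 8 libraries, and genotype over the 6 assignments of 4 clones. The clone labels pair an untreated with an IFNγ library, and this pair is the block. Replicate numbers do not pair WT with KO clones. Calculations used Python 3.11.15, numpy 2.4.6, pandas 2.3.3 and Biopython 1.88, and the code was tested on simulated data. Words of 30 bases were counted on both strands.

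The members and the gene lists were chosen with earlier results of these data known. Named are the 7 members, every region of the stretch, genes at those regions and the genes of the 4 lists. Tried besides were minimums of 3 for −log10 q and 4 for fold enrichment, lists of equal length, joining at 0.5 of the shorter peak, ranks by fold enrichment, flanks of 0 and 100 kb, promoters of 1 kb, a clone block, and leaving out each library. Chosen after seeing the data were the count outside the KYAT3/RBMXL1 promoter and the alternatives for the gene lists and GSDMD. Some listed genes and sequences are not reported here.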

Additional observations from a re-analysis of the deposited data

How the results depend on the processing

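The IFNγ difference in peaks of the GBP stretch (4.25) stayed past the threshold under the −log10 q and fold enrichment minimums, both flanks and without the KYAT3/RBMXL1 promoter. It fell to 0.5 in lists of equal length (exact permutation p = 0.429), and with the clone as replicate block it was 4.25 at p = 0.125, the smallest exact permutation p of that design. Its range over the omission of each library was 3.67 to 4.67. The WT minus KO difference (−0.25) reversed to 0.25 without a flank and without the KYAT3/RBMXL1 promoter, and ranged from −1.75 to 1.25 when a library was left out. The difference in the IFNγ change (−0.5) reversed to 0.5 under the same 2 settings, with a range of −2 to 1. Member promoters with a peak differed with IFNγ by 0.667 to 1.33 when a library was left out (1.33 without KO_C5 after IFNγ, exact permutation p = 0.0286) and between genotypes by 0 to 1. The block also ended the calls of the 2 gained regions and of GSDMD (exact permutation p = 0.125 each) and changed no other call. The count of regions with every IFNγ percentile above every untreated one (2) was 1 with a −log10 q of at least 3 (0.905% of all regions), 1 with a fold enrichment of at least 4 (0.864%), 0 in lists of equal length (0.927%), 1 when joined at 0.5 of the shorter peak (0.871%) and 1 to 2 when a library was left out (1 without WT_5 after IFNγ). With a library left out, the share of all regions called, 0.873% with all libraries, was 1.02% to 8.34%, and highest without WT_4 after IFNγ (8.34%) and without WT_5 untreated (4.86%). No region separated WT from KO under any of these, which outside the KYAT3/RBMXL1 promoter was fixed by untreated libraries without a peak in both genotypes. List genes with a peak in more IFNγ than untreated libraries numbered 3 in lists of equal length. When a library was left out, the groups were unequal in size and shares of libraries were compared instead of counts. By share, 4 to 6 list genes had a peak more often in IFNγ libraries. Of 108 values for single regions and genes, 88 kept their side of the threshold, 5 of them at a difference of 0 (the promoters of GBP1 and GBP3 and the GBP2 site in lists of equal length, and both promoters without WT_5 after IFNγ), and 20 no longer passed it. The 88 hold every value of a site that had not passed at first. Where leaving out a library ended a call, the groups were still apart, and the exact permutation p was 0.0571 over fewer assignments. Depth limits all of this: no list held a pileup under 5 or 6 fragments, and sites with a higher local background needed more.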

Other observations

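Besides its main peak, the KYAT3/RBMXL1 promoter region had a small second peak after IFNγ in both KO clones and in neither WT clone. It had a fold enrichment of 3.81 in KO_C5 (percentile 3.51, pileup 13) and 4.75 in KO_D2 (percentile 13.9, pileup 19). After IFNγ the main peak of WT_5, 1468 bp wide, ran over the same positions as 1 listed peak, and that of WT_4, 1153 bp wide, ran over part of them. In untreated WT_5 the main peak, 1285 bp wide, already ran over part of these positions. The difference between genotypes was not tested.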
